A study of Mus musculus with 8 samples.

Results

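Exonic peaks away from transcription starts were taken from lists of ChIP-seq against the HA tag of EHMT2 and from an input list. Their summits, the bases of highest fragment coverage, lay in an exon of a protein-coding gene. These summits were more than 1 kb from every annotated transcript start and outside soft-masked repeat runs of 5 kb or more. They numbered 125 of 11010 peaks with the HA antibody C29F4, and with the HA antibody ab9110 691 of 40816 peaks in DMSO and 334 of 16324 peaks in dTAG. The dTAG input list held 46 such peaks of 2050. The cells were mouse embryonic stem cells (mESCs) of the EHMT2-dTAG line, a BL6/129 hybrid in which the endogenous *Ehmt2* gene carries an in-frame degron, HA tags and an mCherry reporter on both alleles. The same tagged allele is thus shared by the DMSO and dTAG groups, and dTAG is the compound that triggers degradation of the tagged protein. All 8 samples were treated for 24 h: C29F4 DMSO had 2 ChIP and 2 input samples, and ab9110 had 1 ChIP and 1 input sample each for DMSO and dTAG. The C29F4 list was called on merged samples and each ab9110 list on 1 library, so differences between lists have no replicate check. The intervals given are 95% intervals that cover counting error over peaks.

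EHMT2, also called G9a, is a histone methyltransferase that places H3K9me2, a modification linked to gene repression. It does not read a DNA sequence itself and is brought to sites by other proteins, among them zinc finger repressors such as REST, which binds a long motif made of 2 parts and represses neuronal genes. A last exon usually holds the stop codon and the 3′ untranslated region of a gene, whereas internal exons are mostly coding and much shorter.

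The letters of the left part of the REST motif, TTCAGCACC, were searched on both strands within 100 bp of each summit. They occurred in 7 of 125 exonic C29F4 peaks, and all 7 of these were 3′ untranslated peaks of last exons. The matches are shown with the 12 bases that follow them, because the right part of the motif, if present, would lie there. Each is written 5′ to 3′ on the strand of the match, from mm10, with the searched letters in capitals:

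Fam49a, chr12:12379243-12379263, plus strand: TTCAGCACCttggatagcaga

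Fam184b, chr5:45529881-45529901, plus strand: TTCAGCACCatgggcagttcc

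St6galnac5, chr3:152821380-152821400, minus strand: TTCAGCACCatggacagatcc

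Nova1, chr12:46696912-46696932, minus strand: TTCAGCACCacaaaattactg

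Uxs1, chr1:43747321-43747341, minus strand: TTCAGCACCaaggatagccca

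Ntrk3, chr7:78180196-78180216, minus strand: TTCAGCACCaggaacagcgat

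Otulinl, chr15:27655177-27655197, plus strand: TTCAGCACCacggacaggtcc

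The middle of the 21-base stretch shown, which takes in the bases after the letters, lay 6 to 91 bp from the summit, with a median of 50 bp. *Ntrk3* encodes a neurotrophin receptor and *Nova1* a neuronal splicing regulator. Both were picked from the 7 for description, and whether the 7 genes as a set are neuronal was not tested. The highest C29F4 fold among the 7 was 8.41, at *Fam49a*, and the lowest was 2.33, at *Otulinl*. Of the 7 peaks, 4 overlapped an ab9110 DMSO peak, those at *Fam49a*, *St6galnac5*, *Nova1* and *Uxs1*, and 0 overlapped an ab9110 dTAG peak. Over all 125 exonic C29F4 peaks, 45.6% overlapped an ab9110 DMSO peak and 7.2% a dTAG peak. Over the whole C29F4 list the shares were 67% and 21.7%. With 7 peaks, no departure from the exonic shares can be read.

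The share of exonic C29F4 peaks with these letters was 5.60% (Clopper-Pearson interval 2.28 to 11.2%), against 0.271% of 341309 windows of the same length centred on every 200th base of the exon sequence that the rule could reach. Among exonic peaks of ab9110 DMSO it was 1.59% (0.797 to 2.83%, 11 of 691), and of ab9110 dTAG 0.299% (0.00758 to 1.66%, 1 of 334). The interval of C29F4 and that of ab9110 DMSO lay above the share of the windows, and that of ab9110 dTAG held it. Intronic peaks of the same lists gave 2.85%, 0.933% and 0.490%, so the letters were not particular to exons. Nor were the 11 ab9110 DMSO peaks all last-exon peaks: 6 were, and 5 were coding peaks of internal exons. These 5 lay in *Alpk1*, *Ptpn13*, *Sgo2b*, *Lrrc7* and *Nkain1*. A match is a description of letters and not a bound site, and this motif was 1 of 8 searched.

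**Figure D1:**
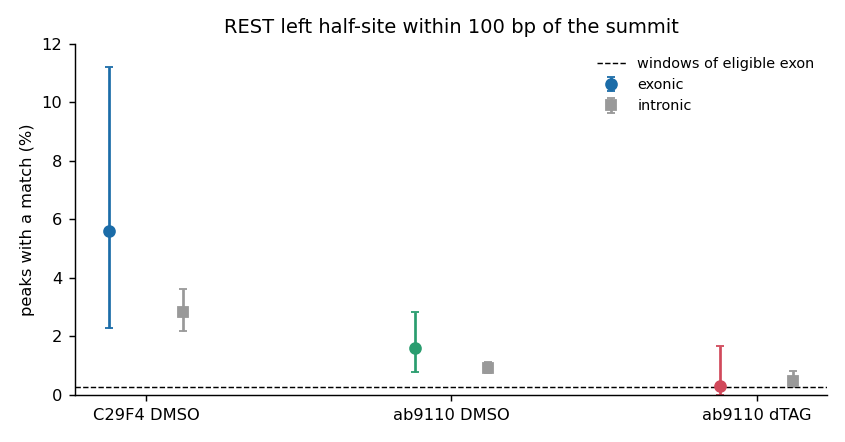
The vertical axis gives the percent of peaks with the letters of the left part of the REST motif within 100 bp of the summit, for exonic (circles) and intronic (squares) peaks of the 3 ChIP lists with Clopper-Pearson intervals, and the dashed line is the share of windows of eligible exon sequence. The exonic share was 5.60% in C29F4, 1.59% in ab9110 DMSO and 0.299% in ab9110 dTAG, against 0.271% of the windows.

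The other 7 motifs were the CRE (TGACGTCA), an E-box (CACGTG), an ETS site (CCGGAAG), the octamer (ATTTGCAT), the CTCF core (AGGGGGCGC) and parts of the NRF1 (GCGCATGCG) and YY1 (AAGATGGCG) motifs. Of the 125 exonic C29F4 peaks, 0 held the CRE, ETS, CTCF or NRF1 letters, which allows a share of up to 2.91% for each. The YY1 letters were in 2 exonic C29F4 peaks (1.60%, against 0.115% of the windows and 2.40% of intronic C29F4 peaks). The E-box was in 4 exonic C29F4 peaks (3.2%, 0.879 to 7.99%), 4.78% (3.31 to 6.64%) of those of ab9110 DMSO and 5.69% (3.46 to 8.74%) of those of dTAG, against 2.73% of the windows. The octamer was in 1.6%, 1.88% and 1.5%, against 1.06%. The CRE was in 0.579% and 0.599% of exonic ab9110 DMSO and dTAG peaks, against 0.178%, and the CTCF core in 0.289% and 0.898%, against 0.0870%. The NRF1 letters occurred in 5 exonic ab9110 DMSO peaks (0.724%) and 5 exonic dTAG peaks (1.5%), against 0.0407% of the windows. For the ETS letters the shares were 3.04% and 3.59%, against 1.30%. Several of these motifs contain CpG, and the exonic ab9110 peaks were richer in G and C than exons at large, as given below. Whether base composition accounts for these shares was not tested. Intronic ab9110 DMSO and dTAG peaks gave 1.14% and 1.37% for ETS, 0.0602% and 0.175% for NRF1 and 0.221% and 0.175% for the CRE. They gave 0.0903% and 0.0350% for the CTCF core, 3.05% and 3.68% for the E-box and 2.30% and 2.59% for the octamer.

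For peaks in coding sequence, the stretches of exon under the summit are shown to let the base composition of the lists be seen. Each is the coding part of the exon within 60 bp of the summit, 5′ to 3′ on the strand of the gene, from mm10, with every CpG in capitals. Peaks of C29F4 come first:

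Tmc2, exon 4 of 20, chr2:130208293-130208413, plus strand: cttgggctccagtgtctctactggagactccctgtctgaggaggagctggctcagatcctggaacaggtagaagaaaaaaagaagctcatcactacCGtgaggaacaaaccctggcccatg

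Cacna1h, exon 9 of 35, chr17:25392088-25392208, minus strand: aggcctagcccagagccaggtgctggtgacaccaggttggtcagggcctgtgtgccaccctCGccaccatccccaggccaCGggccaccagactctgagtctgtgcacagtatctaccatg

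Igsf10, exon 6 of 7, chr3:59326212-59326332, minus strand: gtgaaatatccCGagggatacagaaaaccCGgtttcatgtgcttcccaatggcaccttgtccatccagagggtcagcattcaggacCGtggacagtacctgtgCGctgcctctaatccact

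Myh3, exon 22 of 40, chr11:67092446-67092566, plus strand: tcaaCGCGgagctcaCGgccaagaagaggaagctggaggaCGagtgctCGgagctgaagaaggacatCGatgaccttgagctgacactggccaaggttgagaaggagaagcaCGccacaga

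Then those of ab9110 dTAG:

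Angptl6, exon 2 of 6, chr9:20878189-20878309, minus strand: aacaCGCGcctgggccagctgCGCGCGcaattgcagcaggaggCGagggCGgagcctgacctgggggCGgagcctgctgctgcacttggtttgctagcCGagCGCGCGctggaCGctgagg

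Dennd2c, exon 7 of 19, chr3:103146512-103146556, plus strand: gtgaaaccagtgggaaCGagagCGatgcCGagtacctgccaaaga

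S1pr5, exon 3 of 3, chr9:21244850-21244970, minus strand: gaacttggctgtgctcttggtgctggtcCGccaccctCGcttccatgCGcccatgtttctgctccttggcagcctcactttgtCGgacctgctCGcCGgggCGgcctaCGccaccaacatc

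In 121 bases, *Tmc2* held 1 CpG, *Cacna1h* 2, *Igsf10* 4 and *Myh3* 7, and *S1pr5* held 8 and *Angptl6* 13. Only 45 bases of exon were available at *Dennd2c*, with 3 CpG, and 3.05% of the bases of that peak were exonic. These peaks were taken from those named below, which were ranked by fold within a class of overlap with the other lists. They are not a sample of the coding peaks, and other coding peaks had higher folds than some of them, such as *Gria4* (4.53) and *Myt1l* (4.09) in C29F4 and *Sptbn4* (5.91) in dTAG.

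Exons at large held fewer C29F4 summits than introns did, and more dTAG summits. The exon sequence that the rule could reach was 68.3 Mb, and the introns of the same protein-coding genes, under the same limits, 856.2 Mb. C29F4 had 1.83 summits per Mb of exon (exact Poisson interval 1.52 to 2.18) against 2.58 per Mb of intron, a ratio of 0.709 (0.587 to 0.849). For ab9110 DMSO the values were 10.1 and 11.6 per Mb, a ratio of 0.869 (0.804 to 0.939). For ab9110 dTAG they were 4.89 and 3.34 per Mb, a ratio of 1.47 (1.31 to 1.64). The dTAG input list gave 0.674 and 0.564 per Mb, a ratio of 1.19 whose interval (0.863 to 1.62) held 1. Each ratio is taken within a list.

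Base composition also differed between the lists. The GC content within 100 bp of the summit had a median of 46.3% for exonic C29F4 peaks, 50.7% for ab9110 DMSO and 52.0% for ab9110 dTAG, against 45.3% for the exon windows. Exonic input peaks, 46 in number, had a median of 50.2%, with 8.70% of them at a GC content of 60% or more. The cause of the differences in ratio was not tested. Of exonic dTAG peaks, 89 (26.6%) had a GC content of 60% or more, as did 9 (7.20%) of C29F4, 62 (8.97%) of ab9110 DMSO and 4.78% of the exon sequence. With the density of introns weighted to the GC content of the exon sequence in 6 bins, the dTAG ratio became 0.960 (0.860 to 1.07). The excess over introns was thus not seen in this average over bins, among which the ratio varied as given below. The same weighting gave 0.582 (0.484 to 0.693) for C29F4 and 0.630 (0.583 to 0.678) for ab9110 DMSO, both below 1 with and without it.

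In the lowest GC bin, under 40%, exons and introns differed by less than counting error in all 3 ChIP lists. At 60% or more they differed most in C29F4, with 2.76 summits per Mb of exon against 13.0 per Mb of intron, a ratio of 0.213 (0.0932 to 0.428). For ab9110 DMSO that ratio was 0.358 (0.267 to 0.474), and for dTAG it was 0.959 (0.728 to 1.26). Exonic dTAG summits in this bin numbered 27.3 per Mb, against 5.15 per Mb at a GC content of 50 to 55%. The dTAG ratio was 1.17 (0.784 to 1.68) under 40%, 1.11 (0.805 to 1.51) at 40 to 45% and 1.22 (0.934 to 1.57) at 45 to 50%. It was 0.854 (0.641 to 1.12) at 50 to 55% and 0.681 (0.485 to 0.936) at 55 to 60%, the bin whose interval lay below 1.

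**Figure D2:**
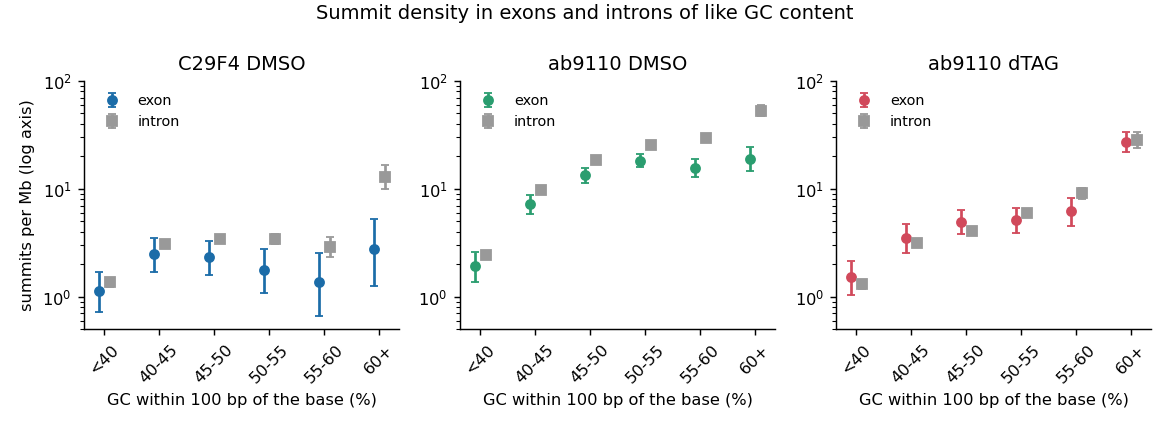
Each panel is 1 ChIP list, with summits per Mb on a log axis against the GC content within 100 bp in 6 bins, for exons (circles) and introns (squares), and exact Poisson intervals. In C29F4 and ab9110 DMSO the exons lay below the introns in each bin, most at 60% or more (2.76 against 13.0, and 19 against 53.1 per Mb), and in dTAG the last bin was alike (27.3 against 28.5 per Mb).

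Last exons held more exonic peaks than any other class: 68 (54.4%) in C29F4, 361 (52.2%) in ab9110 DMSO and 196 (58.7%) in dTAG. Internal exons held 30 (24.0%), 184 (26.6%) and 72 (21.6%). Exons found only in transcripts of these genes with a type other than protein-coding held 24, 115 and 47. The remaining 3, 31 and 19 lay in first or only exons. Of the sequence itself, 52.8% is last exon and 26.9% internal exon. The intervals of the C29F4 and ab9110 DMSO shares held these values. Those of dTAG did not, with 53.2 to 64.0% for last and 17.3 to 26.4% for internal exons. A summit in a last exon of one transcript and an internal exon of another was counted as last (1, 9 and 3 peaks).

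Per Mb, last and internal exons did not differ beyond counting error in C29F4 (1.89 and 1.63, ratio 1.16, interval 0.742 to 1.84) or ab9110 DMSO (both 10.0, ratio 1.00, 0.836 to 1.20). In dTAG last exons had the higher density (5.44 and 3.92 per Mb, ratio 1.39, 1.05 to 1.85). Input peaks went the other way (0.472 and 1.03 per Mb, ratio 0.456, 0.223 to 0.927), from 17 and 19 peaks. The 31 and 19 peaks of first or only exons in ab9110 DMSO and dTAG came from 1.24 Mb, at 24.9 and 15.3 per Mb.

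**Figure D3:**
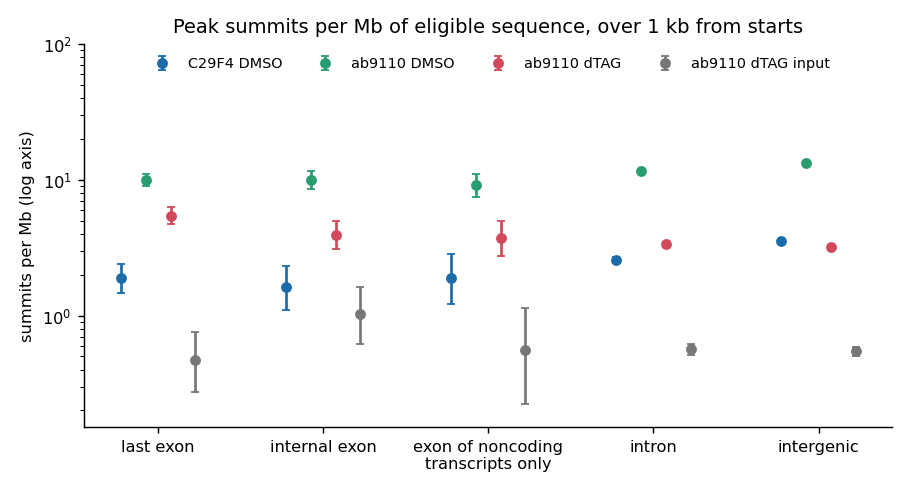
Summits per Mb of eligible sequence on a log axis, with exact Poisson intervals and a colour for each of the 4 lists. The classes are last exons, internal exons, exons of other transcript types only, introns and intergenic sequence. The third class is labelled noncoding on the axis and holds every transcript type other than protein-coding. C29F4 and ab9110 DMSO had lower values in exons than in introns and intergenic sequence (1.83 against 2.58 and 3.51, and 10.1 against 11.6 and 13.2 over all exons), and dTAG had higher values in last exons (5.44) than in introns (3.34).

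Within last exons most summits lay in 3′ untranslated sequence: 49 of 68 in C29F4, 270 of 361 in ab9110 DMSO and 139 of 196 in dTAG. Internal-exon peaks were coding in 28 of 30, 180 of 184 and 67 of 72 cases. The exon of an internal peak was short. Its contiguous run of internal-exon bases had a median of 189 bp in C29F4, 184 bp in ab9110 DMSO and 168 bp in dTAG, below the median peak width of all exonic peaks of each list (422, 398 and 446 bp). At least 50% of the bases of the peak were exonic in 110, 581 and 280 peaks.

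The lists also differed in how far their exonic peaks lay from starts. The median distance was 7668 bp in C29F4, 5526 bp in ab9110 DMSO and 4101 bp in dTAG, against 5709 bp for the exon windows. Of the exonic dTAG peaks, 26.0% (21.4 to 31.1%) lay 1 to 2 kb from a start, against 12.8% (7.50 to 20.0%) in C29F4, 19% in ab9110 DMSO and 16.6% of the windows. The input list gave 26.1% (14.3 to 41.1%), from 12 peaks. At the edge of the rule, exonic summits 500 to 1000 bp from a start numbered 17 in C29F4, 106 in ab9110 DMSO and 94 in dTAG, with median folds of 3.41, 3.05 and 3.58. Those 1000 to 1500 bp away numbered 8, 73 and 50, with median folds of 3.55, 3.16 and 3.60.

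Exonic peaks were of ordinary to low strength in their lists. The deposited fold, which divides the fragments over the summit by the local background after adding 1 to both, had a median of 3.23 in C29F4, 3.16 in ab9110 DMSO and 3.61 in dTAG, against 3.67, 3.28 and 3.78 over all peaks of each list. A q-value under 0.001 was reached by 73.6% of exonic C29F4 peaks (80.8% of the list), 26.2% in ab9110 DMSO (36.1%) and 21% in dTAG (36.5%). Depth also differed between the lists. The mean coverage, taken as the lowest background in a list, was 3.64 fragments in C29F4, 2.11 in ab9110 DMSO, 1.23 in dTAG and 0.978 in the input.

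The exonic C29F4 peaks were found again with the second antibody less often than intronic ones. Of the 125, 57 (45.6%, 36.7 to 54.7%) overlapped an ab9110 DMSO peak by at least 1 bp, against 59.2% of intronic C29F4 peaks and 67% of all C29F4 peaks. The difference to introns was -13.6 percentage points (Newcombe interval -22.3 to -4.60). It had the same direction among the strongest peaks, those with a −log10 q over 4, where 54.8% of 73 exonic and 68.7% of 1426 intronic peaks overlapped. By GC content the exonic share was the lower in 3 of 4 bins, and at 50 to 55% it was the higher, with 16 of 20 exonic (80%, 56.3 to 94.3%) against 74.1% of intronic peaks. Where a C29F4 peak had a partner in ab9110 DMSO, the 2 summits were a median of 83 bp apart, and the partner was itself an exonic peak of the same gene in 53 of 57 cases.

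With dTAG-treated cells, 9 exonic C29F4 peaks (7.20%, 3.35 to 13.2%) overlapped an ab9110 peak, against 15.5% of intronic and 21.7% of all C29F4 peaks. The difference to introns was -8.26 percentage points (-12 to -2.17). All 9 also overlapped an ab9110 DMSO peak. Of the exonic peaks, 48 (38.4%, 29.8 to 47.5%) overlapped ab9110 DMSO and not dTAG, against 44.5% of intronic and 46.1% of all C29F4 peaks, a share near the background. The other 68 (54.4%) overlapped neither, against 40.1% of intronic peaks. This share was not computed over all C29F4 peaks, of which 3636 of 11010 overlapped no ab9110 DMSO peak. Last and internal exons gave like shares for DMSO and not dTAG (28 of 68, 41.2%, and 12 of 30, 40%). Input overlapped 0 of the 125, which allows a share of up to 2.91%, against 0.981% of all C29F4 peaks.

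Exonic ab9110 DMSO peaks overlapped a dTAG peak in 100 of 691 cases (14.5%, 11.9 to 17.3%), against 11.1% of intronic, 49.5% of start-proximal and 18.9% of all ab9110 DMSO peaks. The difference to introns, 3.33 percentage points (0.819 to 6.21), turned to -1.24 (-5.09 to 3.93) when both were limited to a GC content of 50 to 55%. Its interval also took in 0 without soft-masked summits (2.69, -0.0743 to 5.91), with a q-value under 0.01 (3.47, -0.281 to 7.92) or 0.001 (3.89, -1.15 to 10.2), and with summits within 250 bp (0.988, -1.11 to 3.51). Last-exon peaks overlapped in 18.6% (67 of 361) and internal-exon peaks in 7.61% (14 of 184), a difference of 11 percentage points (4.94 to 16.2). Beyond 5 kb from a start the shares were 14.5% of 207 last-exon and 5.36% of 112 internal-exon peaks. At 2 to 5 kb they were 25.2% (17.2 to 34.8%) and 6.67% (1.4 to 18.3%), and at 1 to 2 kb 21.6% of 51 and 18.5% of 27, where the intervals overlapped widely. The same split by sequence type gave 21% of 281 peaks in 3′ untranslated sequence and 9.09% of 286 coding peaks, a difference of 11.9 points (6.06 to 17.8).

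In the reverse direction, 102 of 334 exonic dTAG peaks (30.5%, 25.6 to 35.8%) overlapped an ab9110 DMSO peak, against 37.8% of intronic and 46.8% of all dTAG peaks. Of last-exon dTAG peaks 34.2% did, and of internal-exon ones 23.6%, a difference of 10.6 percentage points whose interval held 0 (-2.08 to 21.4). Of 3′ untranslated dTAG peaks 39.6% did, and of coding ones 21.3%, a difference of 18.3 points (7.48 to 28.4). With C29F4, 8 exonic dTAG peaks overlapped (2.40%, 1.04 to 4.66%), against 12% of intronic and 14.8% of all dTAG peaks, a difference to introns of -9.58 percentage points (-11.3 to -7.05). Of exonic ab9110 DMSO peaks, 66 (9.55%) overlapped C29F4, against 13.1% of intronic and 18.1% of all ab9110 DMSO peaks. Input peaks overlapped 4 exonic ab9110 DMSO peaks (0.579%, against 0.625% of the list) and 2 exonic dTAG peaks (0.599%, against 0.643%).

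**Figure D4:**
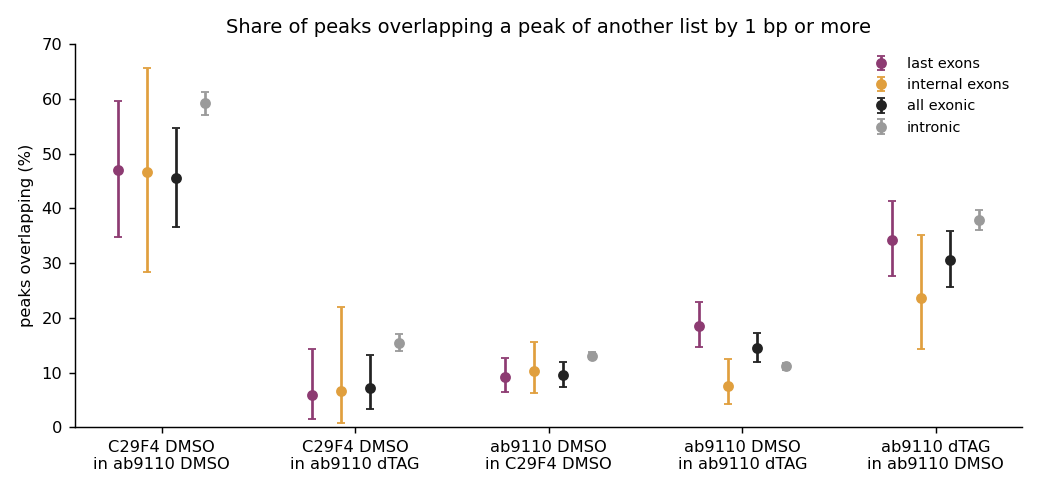
Percent of the peaks of the first-named list that overlapped a peak of the second by 1 bp or more, for last-exon, internal-exon, all exonic and intronic peaks, with Clopper-Pearson intervals. Exonic peaks lay below intronic ones in 4 of the comparisons (45.6% against 59.2% for C29F4 in ab9110 DMSO) and above in ab9110 DMSO in dTAG (14.5% against 11.1%), where last exons (18.6%) and internal exons (7.61%) separated.

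By gene, 118 genes held an exonic C29F4 peak, 651 an ab9110 DMSO peak and 326 a dTAG peak. C29F4 and ab9110 DMSO shared 61 genes, 51.7% of the first list and 9.37% of the second. C29F4 and dTAG shared 10 (8.47% and 3.07%), and ab9110 DMSO and dTAG 89 (13.7% and 27.3%). The 9 genes in all 3 lists were *Asb4*, *Aspa*, *Cdc37l1*, *Hist1h2be*, *Ifitm7*, *Pdgfrl*, *Sorbs2*, *Srrm4* and *Vmn2r3*. Among them *Aspa* encodes an enzyme that breaks down N-acetylaspartate, *Srrm4* a neuronal splicing regulator and *Hist1h2be* a core histone.

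The C29F4 peaks below were named by their fold among those that overlapped ab9110 DMSO and neither the dTAG ChIP nor the input list, 6 for each kind of exon. The last-exon peaks all lay in 3′ untranslated sequence. They were in *Fam49a* at chr12:12378587-12379762 (fold 8.41 in C29F4 and 4.69 in ab9110 DMSO), *Tas1r3*, a taste receptor subunit, at chr4:155859336-155859718 (8.33 and 3.75), and *Sh3glb1*, a protein of membrane curvature, at chr3:144689484-144689871 (8.08 and 4.89). *Dtx4*, an E3 ubiquitin ligase of the Notch pathway, followed at chr19:12467169-12467855 (6.00 and 7.88). The other two were separate peaks in exon 28 of 28 of *Itga4*, the integrin alpha 4 chain, with C29F4 folds of 5.79 and 5.39 and ab9110 DMSO folds of 3.15 and 3.00. The summit windows of the *Itga4* peaks were 34.3% and 95% soft-masked, and the position of a read among repeat copies is uncertain.

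Over all peaks of this kind the median C29F4 fold was 3.06 for 12 internal-exon peaks and 3.46 for 28 last-exon peaks. Compared with the named last-exon peaks, the 6 named internal-exon peaks, taken from this smaller number, had lower C29F4 folds. They were 4.38 in exon 9 of 35 of *Cacna1h*, a T-type calcium channel, 4.11 in 5′ untranslated sequence of exon 3 of 10 of *Sgms1*, a sphingomyelin synthase, and 3.62 in exon 6 of 7 of *Igsf10*. For *Myh3*, the embryonic myosin heavy chain, the fold was 3.49 in exon 22 of 40, for *Nphs1*, the kidney slit protein nephrin, 3.13 in exon 10 of 30, and for *Slc24a1*, a photoreceptor cation exchanger, 3.06 in exon 7 of 10. In ab9110 DMSO the folds at these 6 peaks ranged from 2.91 at *Cacna1h* to 5.86 at *Sgms1*, where the ab9110 summit lay 4 bp away and in the intron. Summits of the 2 antibodies were 4 to 109 bp apart at these peaks.

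The strongest exonic C29F4 peak was one of the 9 that also overlapped dTAG. It lay at chr2:130207437-130210080 in *Tmc2*, a subunit of the hair cell mechanotransduction channel, with 139 fragments at the summit in exon 4 of 20. Of the bases of this peak, 5.79% were exonic. Its fold was 19.3 in C29F4 and 15.8 in ab9110 DMSO, and a dTAG peak of fold 3.34 overlapped it with a summit 1193 bp away. In both ab9110 lists the summit of the partner was intronic. The next were *Ifitm7* (4.88 in C29F4, 3.91 in ab9110 DMSO and 3.56 in dTAG), *Aspa* (4.34, 3.36 and 6.5) and *Hist1h2be* (4.22, 4.77 and 4.51). At *Aspa* and *Ifitm7* the summit windows were 90% and 72.1% soft-masked, and at *Hist1h2be* 0%.

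The exonic dTAG peaks with the highest fold that also overlapped ab9110 DMSO, but not C29F4, were in *Mettl27* (9.28 in dTAG and 4.22 in ab9110 DMSO), *Nlrp12*, an inflammasome family gene (7.60 and 3.37), *Angptl6* (6.81 and 3.37) and *Dennd2c* (6.45 and 3.68). At *Mettl27* the ab9110 DMSO summit lay 1152 bp away, outside the gene. The 4 dTAG summits lay 1432, 1535, 1478 and 2651 bp from the nearest start. Those found in no other list were *Rbpj*, the DNA-binding effector of Notch signalling (5.21, in an exon of a transcript not typed as protein-coding), *S1pr5*, a sphingosine-1-phosphate receptor (5.21), *Tmem45a2* (5.15) and *Apela*, a peptide ligand of the apelin receptor (4.96). These 4 peaks had 11 to 16 fragments at the summit.

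Exonic ab9110 DMSO peaks found in no other list were led by *Nsd1*, a histone H3K36 methyltransferase, with a fold of 7.77 in exon 5 of 23. They were followed by *Dsg2*, a desmosomal cadherin (6.93), a peak in exon 5 of 7 of *Igsf10* (6.08) and *Slc1a6*, a glutamate transporter (5.92). All 4 were coding peaks of internal exons, with 18 to 29 fragments at the summit. In the input list the leading exonic peaks were *Gm20671* (10.6), *Pisd* (6.39), which lies within 1 kb of the first, and *Tfap2b* (5.30), and no ChIP list overlapped any of these.

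**Figure D5:**
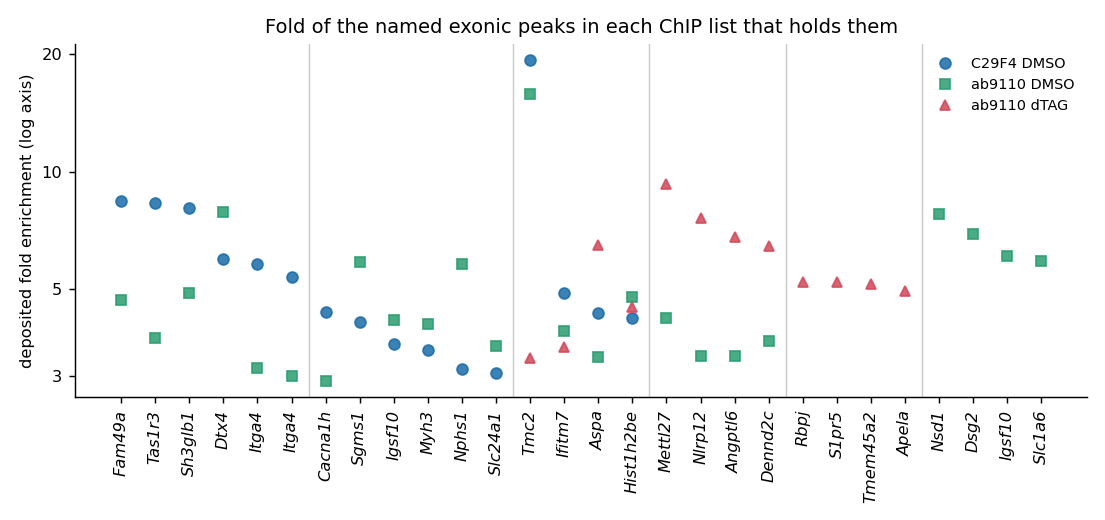
Deposited fold on a log axis of the named exonic peaks in each ChIP list with an overlapping peak, in blocks from left to right: C29F4 peaks of last exons and of internal exons shared with ab9110 DMSO and not dTAG, C29F4 peaks shared with both, dTAG peaks shared with ab9110 DMSO, dTAG peaks alone, and ab9110 DMSO peaks alone. *Tmc2* stood highest at 19.3 and 15.8 and its dTAG partner at 3.34. No test was made between folds of separate lists.

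Several genes held more than 1 exonic C29F4 peak. *Itga4* had 3, all in its last exon, and *Tmc2*, *Dtx4*, *Aspa* and *Mbnl1*, a splicing regulator, had 2 each, as did *Snhg11*. The second *Tmc2* peak lay in exon 11 of 20, with a fold of 3.05 in both C29F4 and ab9110 DMSO. In dTAG, the Wnt receptor gene *Fzd5* had 3 peaks in its last exon, with folds of 5.81, 3.43 and 3.39, and each overlapped an ab9110 DMSO peak. The exonic ab9110 DMSO peak in that exon had a fold of 2.76.

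Gene lists were read against their share of the eligible exon sequence. Zinc finger genes, 528 by symbol, made up 3.27% of it and held 3 exonic C29F4 peaks (2.40%, 0.498 to 6.85%), 15 of ab9110 DMSO (2.17%, 1.22 to 3.56%) and 12 of dTAG (3.59%, 1.87 to 6.19%). All 3 intervals held the share of the sequence. The 3 C29F4 peaks were 3′ untranslated peaks of *Zfp958* (fold 4.31), *Zfp37* (4.10) and *Zfp874a* (2.89), and of these *Zfp874a* overlapped an ab9110 DMSO peak (6.36). Of the 12 dTAG peaks, 10 were coding, and the genes included *Klf1*, *Klf2*, *Klf4*, *Prdm13* and *Zbtb7b*. With the list taken instead as genes with at least 3 TGEKP linkers, the link between fingers in many repressors, the list made up 1.67% of the sequence. C29F4 then had 4 peaks (3.20%, 0.879 to 7.99%), ab9110 DMSO 7 (1.01%, 0.408 to 2.08%) and dTAG 2 (0.599%, 0.0726 to 2.15%). All 3 intervals held that share as well.

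Homeobox, forkhead, Sox, T-box and Pax genes, 0.799% of the sequence, held 0 exonic C29F4 peaks, 6 of ab9110 DMSO (0.868%) and 7 of dTAG (2.10%, 0.847 to 4.27%). The dTAG peaks were in *Hoxc6*, *Lhx5*, *Nkx2-1*, *Nkx6-3*, *Pou3f1*, *Sox12* and *Foxn2*, factors of differentiation and patterning. At *Nkx2-1*, with a GC content of 74.6% and a fold of 4.44, the summit was 1851 bp from a start. Of these 7 peaks *Foxn2* alone overlapped an ab9110 DMSO peak (4.44 in dTAG and 5.08 in DMSO). Over all exonic dTAG peaks 30.5% did, and over the whole dTAG list 46.8%, so most exonic dTAG peaks had no such overlap. With 7 peaks, no departure from the exonic share can be read.

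Pluripotency factor genes, 0.0719% of the sequence, held 0 exonic C29F4 peaks, which allows up to 2.91%. They held 4 of ab9110 DMSO (0.579%, 0.158 to 1.48%), in *Esrrb*, *Fgf4*, *Otx2* and *Tdgf1*. They also held 4 of dTAG (1.2%, 0.327 to 3.04%), 2 in *Klf4* and 1 each in *Klf2* and *Fgf4*. Both ab9110 intervals lay above the share of the sequence, on 4 peaks each. *Klf2* and *Klf4* are counted among the zinc finger genes as well, and *Otx2* among the homeobox genes. The *Fgf4* peak was in the 3′ untranslated region in both ab9110 lists, with folds of 3.26 in DMSO and 4.77 in dTAG. Genes of H3K9 methylation, 0.161% of the sequence, held 0 peaks of C29F4, 4 of ab9110 DMSO (0.579%, 0.158 to 1.48%) and 1 of dTAG (0.299%, 0.00758 to 1.66%), and all 3 intervals held that share. The ab9110 DMSO peaks were in *Mga*, *Uhrf1*, *Wiz* and *Zfp462*, with folds of 2.61 to 3.13, and the dTAG peak was in *Wiz*. *Wiz* and *Zfp462* encode zinc finger partners of the EHMT1 and EHMT2 complex.

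Olfactory and vomeronasal receptor genes, 5.29% of the sequence, held 7 exonic C29F4 peaks (5.60%, 2.28 to 11.2%), 29 of ab9110 DMSO (4.20%, 2.83 to 5.97%) and 9 of dTAG (2.69%, 1.24 to 5.05%). Ion channel genes, 1.63%, held 3 (2.40%), 17 (2.46%, 1.44 to 3.91%) and 5 (1.5%). The C29F4 peaks among them were in *Cacna1h*, *Gria4* and *Kcnmb4*. In the order C29F4, ab9110 DMSO and dTAG, protocadherin and cadherin genes (0.629% of the sequence) held 0, 5 (0.724%) and 1 (0.299%) peaks. Collagen and laminin genes (0.538%) held 1, in *Col6a2* (0.8%), 3 (0.434%) and 0, and bHLH and GATA factors of differentiation (0.114%) held 0, 2 (0.289%) and 0. The intervals of the ion channel, cadherin, collagen and bHLH lists held the share of the sequence. For the olfactory and vomeronasal receptor genes those of C29F4 and ab9110 DMSO held it. The dTAG interval of these receptor genes lay below their share. Clustered histone genes, 0.0320% of the sequence, held 1 (0.8%, 0.0203 to 4.38%), 2 (0.289%, 0.0351 to 1.04%) and 2 (0.599%, 0.0726 to 2.15%). Ribosomal protein genes, 0.0657%, held 0, 3 (0.434%, 0.0896 to 1.26%) and 2 (0.599%, 0.0726 to 2.15%). The ab9110 intervals of these last lists lay above their share, on 2 or 3 peaks each, and both families have near-identical copies among which reads can be split.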

How the data were processed

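Peak lists were taken as deposited. The authors trimmed reads, aligned them to mm10 with STAR (2.7.10), placing each multimapping read at 1 randomly chosen best location, removed duplicates with Picard (2.26.0) and high-signal blacklist reads, called peaks with MACS2 (2.2.6) on paired fragments and kept those with a q-value under 0.05. The deposited fold is a ratio of pileup to background, the deposited −log10 p and −log10 q columns describe the summit base, and the deposited summit position is an offset from the peak start. In the deposited score column, whole numbers held −log10 q times 10 for C29F4 and −log10 p times 10 for ab9110. Use of a control library in calling is not given in the sources used here. Peaks of the inputs for C29F4 and for ab9110 in DMSO were not used here.

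Summits were placed on GENCODE M21 exons, on chromosomes 1 to 19, X and Y of the RefSeq copy of GRCm38, whose soft-masking defined repeats. Introns were those of the same protein-coding genes under the same limits. Fragments at a summit and mean coverage were recovered from the fold and the p-value. Shares carry Clopper-Pearson, densities exact Poisson and differences Newcombe 95% intervals, and peaks are not independent samples. Ratios of densities were intervals of the share of summits that were exonic. No p-value was computed. Overlap calls were tested on 800 simulated peaks against bedtools, with 0 different calls, and members of the 4 lists were counted again with bedtools, with 0 different counts. Analyses used python, numpy and scipy.

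Members, gene lists and motifs were chosen with earlier results of these data known. The named peaks were those with the highest fold in each class of overlap (6 per exon kind for C29F4 peaks shared with ab9110 DMSO alone, 4 per other class, 3 of the input), the 5 genes with most C29F4 peaks, ties going to the higher summed fold, and up to 4 C29F4 zinc finger peaks with the highest fold. Genes named beyond these, including those with REST letters and those in gene lists, were chosen after their values were seen.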

Additional observations from a re-analysis of the deposited data

How the results depend on the processing

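No difference between lists has a replicate check, since each list came from 1 library or from merged samples. No paired analysis was possible because the C29F4 samples that share replicate numbers gave a single merged list and each ab9110 group had 1 sample. Depth differed between lists, and an exonic peak missed in a shallower list cannot be told apart from one not there. Of 138 values recomputed, 32 moved and 3 turned direction, and the cause was not tested. No value moved past the limits with starts at 2 kb, no masked summits or removal of peaks shared with input, but the interval of the exonic minus intronic share of ab9110 DMSO in dTAG took in 0 without masked summits.

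With a q-value under 0.01, exonic peaks numbered 340 (ab9110 DMSO), 145 (dTAG) and 8 (input), the dTAG share in ab9110 DMSO was 42.8% and the ab9110 DMSO share in C29F4 14.7%. Under 0.001 they numbered 181, 70 and 3, the last-exon share was 56.4% (ab9110 DMSO) and 65.7% (dTAG), and the overlap shares were 34.8% (C29F4 in ab9110 DMSO), 17.7% (ab9110 DMSO in dTAG), 47.1% (dTAG in ab9110 DMSO) and 19.9% (ab9110 DMSO in C29F4). The zinc finger share of ab9110 DMSO was then 0.552% and its exon to intron density ratio 0.768. With exons of protein-coding transcripts alone, last-exon shares were 67.3% (C29F4), 62.7% (ab9110 DMSO) and 68.3% (dTAG). With at least 50% of the peak in exons they were 60.2% (ab9110 DMSO) and 66.8% (dTAG). With a limit of 250 bp between summits, overlap fell to 9.99% (ab9110 DMSO in dTAG) and 21% (dTAG in ab9110 DMSO). With 50% of the peak covered they were 22.8% (dTAG in ab9110 DMSO) and 6.22% (ab9110 DMSO in C29F4). Weighting each ab9110 DMSO peak by its chance of a call at dTAG coverage gave 22.7% in dTAG. At a GC content of 50 to 55%, the exonic minus intronic share of ab9110 DMSO in dTAG was -1.24 points.

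Alternatives chosen after seeing the data were TGEKP linkers in GENCODE transcripts, with zinc finger shares of 1.01% (ab9110 DMSO) and 0.599% (dTAG), and all those of the density ratios. At a GC content of 50 to 55% the exon to intron ratios were 0.513 (C29F4), 0.717 (ab9110 DMSO) and 0.854 (dTAG, 0.641 to 1.12), and with introns weighted by GC content 0.582, 0.630 and 0.960 (0.860 to 1.07). Both dTAG intervals held 1. TGEKP linkers in RefSeq proteins and removal of input peaks from the input list itself were not run.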
